A study of Mus musculus with 12 samples.

Results

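Transcripts of 10 genes that make up AMP-activated protein kinase (AMPK) or act on it were examined in cultured mouse lung endothelial cells (MLECs), out of the 28689 genes in the expression table. They were chosen by name. They encode the catalytic subunits alpha1 (Prkaa1) and alpha2 (Prkaa2), the scaffold subunits beta1 (Prkab1) and beta2 (Prkab2), the nucleotide-binding subunits gamma1 (Prkag1) and gamma2 (Prkag2), the upstream kinase LKB1 (Stk11) with its scaffold MO25alpha (Cab39), and the upstream kinases CaMKK2 (Camkk2) and TAK1 (Map3k7). All 10 passed the filter for testing, at least 1 FPKM in 6 or more libraries (FPKM are a gene's fragments relative to its length in kilobases and to the depth of the library).

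The study compared 6 MLEC libraries of dKO mice with 6 of CTR mice. The dKO mice were VE-CAD-CreERT2+/Sp1 fl/fl/Sp3 fl/fl and the CTR mice were VE-CAD-CreERT2-/Sp1 fl/fl/Sp3 fl/fl littermates, which the labels call WT, so both carried the floxed alleles of the transcription factors Sp1 and Sp3 and both were given tamoxifen. Cre was driven by the VE-cadherin promoter, which is active in endothelial cells, and CTR mice lacked it. The mice were males of 6 to 8 weeks, and lung cells were selected with beads against CD31 and then against intercellular adhesion molecule 2 before early-passage culture. The labels do not say whether the libraries come from separate mice or cultures. The study states in general terms, not for these libraries by name, that its replicates were biologically independent, and p-values here measure the spread between these libraries. The columns of the table are named CTR and TAM, and TAM was taken as dKO although both groups were given tamoxifen, so the direction of every change rests on this reading and on the Sp1 levels given below.

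AMPK is a trimer of an alpha, a beta and a gamma subunit that senses a low energy charge of the cell. AMP or ADP binding to gamma favours phosphorylation of a threonine in the activation loop of alpha, which LKB1 or CaMKK2 can carry out, and active AMPK restrains anabolic enzymes and promotes catabolism and autophagy. In endothelial cells AMPK is known for its link to nitric oxide production, and the study asked whether Sp1 and Sp3 control transcription of its alpha subunits.

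Sp1 and Sp3 bind GC-rich promoter elements, and the GC box searched here was GGGCGG, or CCGCCC when it lies on the other strand. Upstream sequences are shown for both catalytic subunits, about which the study asked, and for Prkab2 and Prkag2, whose dKO and CTR libraries did not overlap. Each line gives the bases just before the annotated start of the canonical GENCODE transcript on GRCm39, 5′ to 3′ on the gene's strand, with GC boxes in capitals; the line of Prkaa1 stops 1 base short of that start. Prkaa1 lies at chr15:5172967-5173215 on the plus strand, Prkaa2 at chr4:104967088-104967337 on the minus strand, Prkab2 at chr3:97565278-97565527 on the plus strand and Prkag2 at chr5:25306440-25306689 on the minus strand.
Prkaa1: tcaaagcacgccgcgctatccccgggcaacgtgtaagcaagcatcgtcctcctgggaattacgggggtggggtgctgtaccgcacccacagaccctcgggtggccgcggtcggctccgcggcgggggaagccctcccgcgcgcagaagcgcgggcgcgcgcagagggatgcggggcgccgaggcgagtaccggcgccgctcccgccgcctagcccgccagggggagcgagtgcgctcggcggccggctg
Prkaa2: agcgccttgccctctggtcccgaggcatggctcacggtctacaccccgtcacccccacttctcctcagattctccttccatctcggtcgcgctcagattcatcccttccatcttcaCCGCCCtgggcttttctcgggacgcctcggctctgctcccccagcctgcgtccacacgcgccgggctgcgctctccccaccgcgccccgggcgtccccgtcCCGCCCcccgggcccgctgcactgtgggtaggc
Prkab2: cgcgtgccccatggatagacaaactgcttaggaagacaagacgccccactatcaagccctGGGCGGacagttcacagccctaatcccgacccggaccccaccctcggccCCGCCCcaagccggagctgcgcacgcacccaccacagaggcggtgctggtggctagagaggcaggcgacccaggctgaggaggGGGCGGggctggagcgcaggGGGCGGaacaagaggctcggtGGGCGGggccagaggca
Prkag2: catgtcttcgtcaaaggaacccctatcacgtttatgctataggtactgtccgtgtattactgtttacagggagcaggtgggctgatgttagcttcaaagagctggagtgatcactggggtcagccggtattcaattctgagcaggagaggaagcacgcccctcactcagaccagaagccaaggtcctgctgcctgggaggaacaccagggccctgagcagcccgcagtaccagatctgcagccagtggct

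From 250 bases before to 50 bases after these starts, Prkab2 held 5 GC boxes, which began at −190, −141, −58, −38 and −17 from the start. The 2 boxes of Prkaa2 began at −134 and −33. Prkaa1 held 1 box, at 21 after the start and so outside the printed stretch, in a window of 77.0% G and C. Prkag1, Stk11, Cab39 and Map3k7 held 2 boxes each, and Prkab1, Prkag2 and Camkk2 held none. Thus 7 of the 10 windows (70.0%) held the motif, against 59.7% of 11303 protein-coding genes that passed the filter and 42.5% of all 21757 protein-coding genes. With GT boxes (GGGTGG or CCACCC, which can share bases with a GC box) counted as well, the shares were 90.0%, 72.7% and 57.9%. The counts rest on the start used. At the RefSeq starts, whose sequences were taken from the RefSeq promoter table of GRCm38.p6, Prkaa1 began 126 bases further downstream and its window held 5 boxes, Camkk2 began 266 bases downstream with 1 box, Stk11 had 1 box, and the 3 windows of Prkag2 held 0 to 2. A match of these letters is a description and shows no binding.

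The targeted genes were looked at first. Sp1 was between 19.4 and 23.7 FPKM in CTR libraries (median 20.7) and between 8.42 and 12.1 FPKM in dKO libraries (median 10.99). Every dKO library lay below every CTR library, and Sp1 fell with a log2 fold change of −0.95 on the log2(FPKM + 1) scale used for all tests (limma, adjusted p = 5.68e-06). Sp3 was between 24.2 and 31.1 FPKM in CTR libraries (median 27.7) and between 22.5 and 26.9 FPKM in dKO libraries (median 25.3), with a log2 fold change of −0.14 (SE 0.07) that did not pass the test (limma, adjusted p = 0.0902). It passed without CTR replicate 6 (−0.18, limma, adjusted p = 0.0328) and with array weights (−0.15, adjusted p = 0.039), and was nearer 0 under median-of-ratios (−0.05, adjusted p = 0.525), quantile (−0.12, adjusted p = 0.196) and upper-quartile scaling (−0.12, adjusted p = 0.201). These values count fragments over the whole gene, and the exons that Cre removes are not given in the sources used here.

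The libraries held 15523054 to 17938286 fragments. Of 12467 genes tested, 6614 (53.1%) had an adjusted p under 0.05, 2549 (20.4%) higher and 4065 (32.6%) lower in dKO, and 27.4% had groups that did not overlap. The balance of the directions rests on the scaling, since under median-of-ratios scaling 3222 genes were called higher and 3010 lower. Markers of several cell types moved with the groups. The summed FPKM of 12 endothelial markers was 229 to 366 in CTR and 418 to 562 in dKO libraries, with 11 of 12 higher. That of 10 macrophage markers was 794 to 1349 in CTR and 2119 to 4494 in dKO libraries, with 9 higher and Marco lower, and its most abundant gene Lyz2 was at 746 ± 159.6 FPKM in CTR and 1868 ± 580.3 FPKM in dKO (SD, n = 6). That of 7 fibroblast markers was 2124 to 2702 in CTR and 820 to 1650 in dKO libraries, with 3 of the 6 tested lower and 1 higher. Col1a1, a fibroblast collagen gene, was at 1173 ± 65.1 FPKM in CTR and 572 ± 128 in dKO libraries (SD, n = 6), above the most abundant endothelial marker Cdh5 at 88.9 ± 16.1 and 140.3 ± 17.1. Of 5 mesothelial markers 4 were higher (summed FPKM 21.4 to 30.6 in CTR, 58.1 to 135 in dKO), and Msln was at 15.8 ± 3.78 FPKM in CTR and 42.9 ± 19.6 in dKO. Of 7 tested smooth muscle and pericyte markers 2 were higher, and the summed FPKM of that list, led by Acta2, was 509 to 1428 in CTR and 465 to 851 in dKO libraries. Of 7 lung epithelial markers 1, Epcam, was higher, and the summed FPKM of that list, mostly Sftpc, was 89.7 to 503 in CTR and 155 to 363 in dKO libraries. Lymphocyte and retina markers, led by Cd79a and Rcvrn, were near 0, at no more than 0.209 and 0.529 FPKM summed, and Cd3e, Cd3d and Ms4a1 were at 0 in 11 of 12 libraries each. In such bulk RNA, fewer cells of a type and less RNA per cell cannot be told apart. The part of these cell types in the values below was not tested.

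Of the 10 genes, Prkab2 and Map3k7 fell in dKO MLECs and Prkag2, Stk11 and Prkaa2 rose, Prkaa2 with a call that was lost under several alternatives, while Prkaa1, Prkab1, Prkag1, Cab39 and Camkk2 did not pass the test. The 5 of 10 genes called (50%) stand beside 53.1% of all genes tested, the 3 higher beside 20.4% and the 2 lower beside 32.6%. Groups that did not overlap were found for 2 of 10 (20%), beside 27.4% of all genes, and were above for Prkag2 (11.3% of all genes) and below for Prkab2 (16.1%). The changes were small. Log2 fold changes ran from −0.43 to 0.34, their median size was 0.22 against 0.28 for all genes tested and 0.46 for the called ones, and their median was −0.13 against −0.10. The study's methods set a limit of 1.5 on the log2 scale, which 1.98% of tested genes passed together with an adjusted p under 0.05, and elsewhere it speaks of 1.5-fold, which 17.9% passed on the scale used here. None of the 10 reached either limit.

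**Figure D1:**
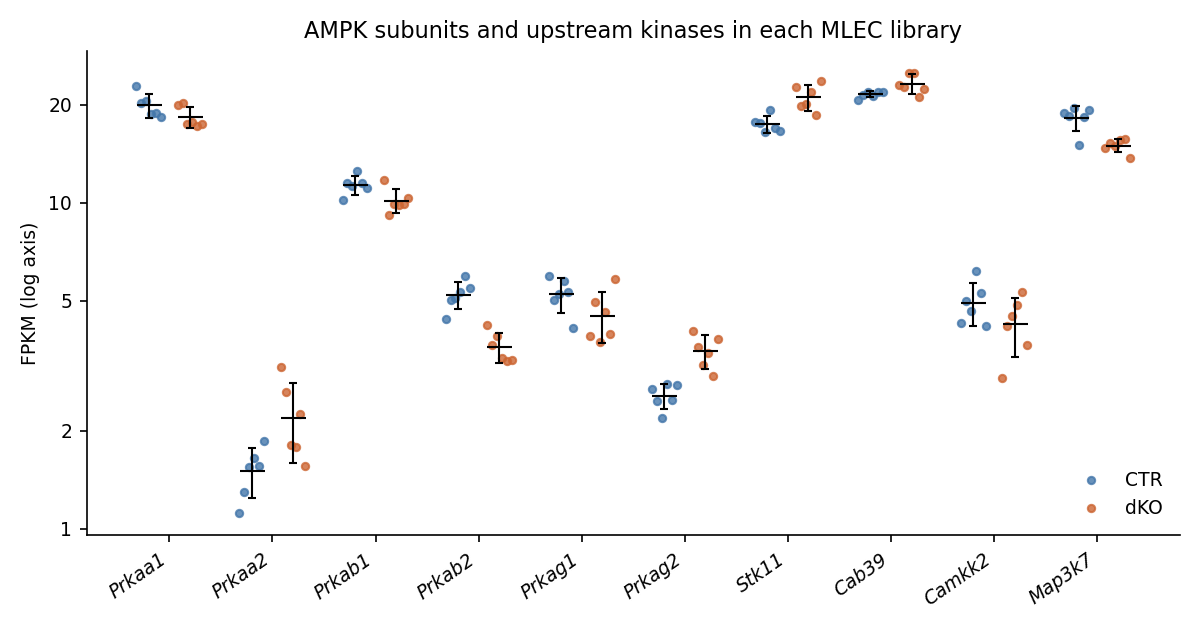
FPKM (log axis) of the 10 genes in each of the 12 MLEC libraries, with CTR in blue and dKO in orange; black marks give the mean and SD of 6 libraries. The orange points of Prkab2 lie wholly below and those of Prkag2 wholly above the blue ones, whereas the groups overlap for the other 8 genes.

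The catalytic subunits differed from each other in level. Prkaa1 did not pass the test and Prkaa2 was called higher, and the difference between their changes was not tested. Prkaa1 (ENSMUSG00000050697, chr15:5173186-5211750, plus strand), the alpha1 gene, was between 18.4 and 22.8 FPKM in CTR libraries (median 19.6) and between 17.2 and 20.2 FPKM in dKO libraries (median 17.6). The CTR range held dKO replicates 1 and 2, at 20.02 and 20.2 FPKM, and the other 4 dKO libraries fell short of it. Its log2 fold change was −0.11 (SE 0.07, 95% interval −0.26 to 0.03), which did not pass the test (limma, adjusted p = 0.177; exact two-sided permutation test over libraries, p = 0.106). It was −0.08 without CTR replicate 1 (limma, adjusted p = 0.344) and −0.02 under median-of-ratios scaling (adjusted p = 0.782). Further from 0, it was −0.17 on TPM (limma, adjusted p = 0.0765) and −0.14 without dKO replicate 2 (adjusted p = 0.116). At 1346 to 1848 fragments a library, counting error was small for this gene, and the interval allows a log2 fall of up to 0.26.

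Prkaa2 (ENSMUSG00000028518, chr4:104886845-104967102, minus strand), the alpha2 gene, had the lowest mean of the 10 in both groups. It was between 1.12 and 1.86 FPKM in CTR libraries (median 1.55) and between 1.56 and 3.15 FPKM in dKO libraries (median 2.03), from 155 to 389 fragments a library. All 6 dKO libraries lay above the CTR median and 3 lay above every CTR library, replicate 1 being the highest. Prkaa2 rose with a log2 fold change of 0.34 (SE 0.12, limma, adjusted p = 0.0319; exact two-sided permutation test, p = 0.026, n = 6 in each group), and its mean in dKO was 1.46 times that in CTR. The call was lost without CTR replicate 1 (0.29, limma, adjusted p = 0.0675) or 2 (0.31, adjusted p = 0.0642), and without dKO replicate 1 (0.26, adjusted p = 0.0594), 2 (0.30, adjusted p = 0.0702) or 5 (0.33, adjusted p = 0.0556). It was also lost with no filter (0.34, limma, adjusted p = 0.0708) and on TPM (0.41, adjusted p = 0.0552); the log2 fold change was positive in each case.

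The pattern of Prkaa2 from library to library was set beside those of other genes. The 3 genes with the most similar pattern over the 12 libraries, by Pearson correlation on the log2(FPKM + 1) scale, were Mal2 (r = 0.96), a membrane protein of apical transport, Cgn (r = 0.96), which encodes the tight junction protein cingulin, and Cldn7 (r = 0.93), a claudin. Within the 6 CTR libraries r was 0.98, 0.85 and 0.93 for these genes, and within the 6 dKO libraries 0.90, 0.96 and 0.89. Of the 7 lung epithelial markers, the adhesion genes Epcam and Cdh1 gave r of 0.83 and 0.88 over all libraries, 0.85 and 0.70 within CTR and 0.64 and 0.92 within dKO. For the other 5, r over all libraries was 0.04 for Sftpc, −0.06 for Sftpb, 0.20 for Nkx2-1, −0.13 for Scgb1a1 and 0.38 for Ager. Within CTR they ran from 0.25 for Sftpc to 0.96 for Sftpb, and within dKO from −0.64 for Sftpc to 0.08 for Sftpb. All these correlations share the libraries, their depth and the contrast itself, and describe these libraries only.

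**Figure D2:**
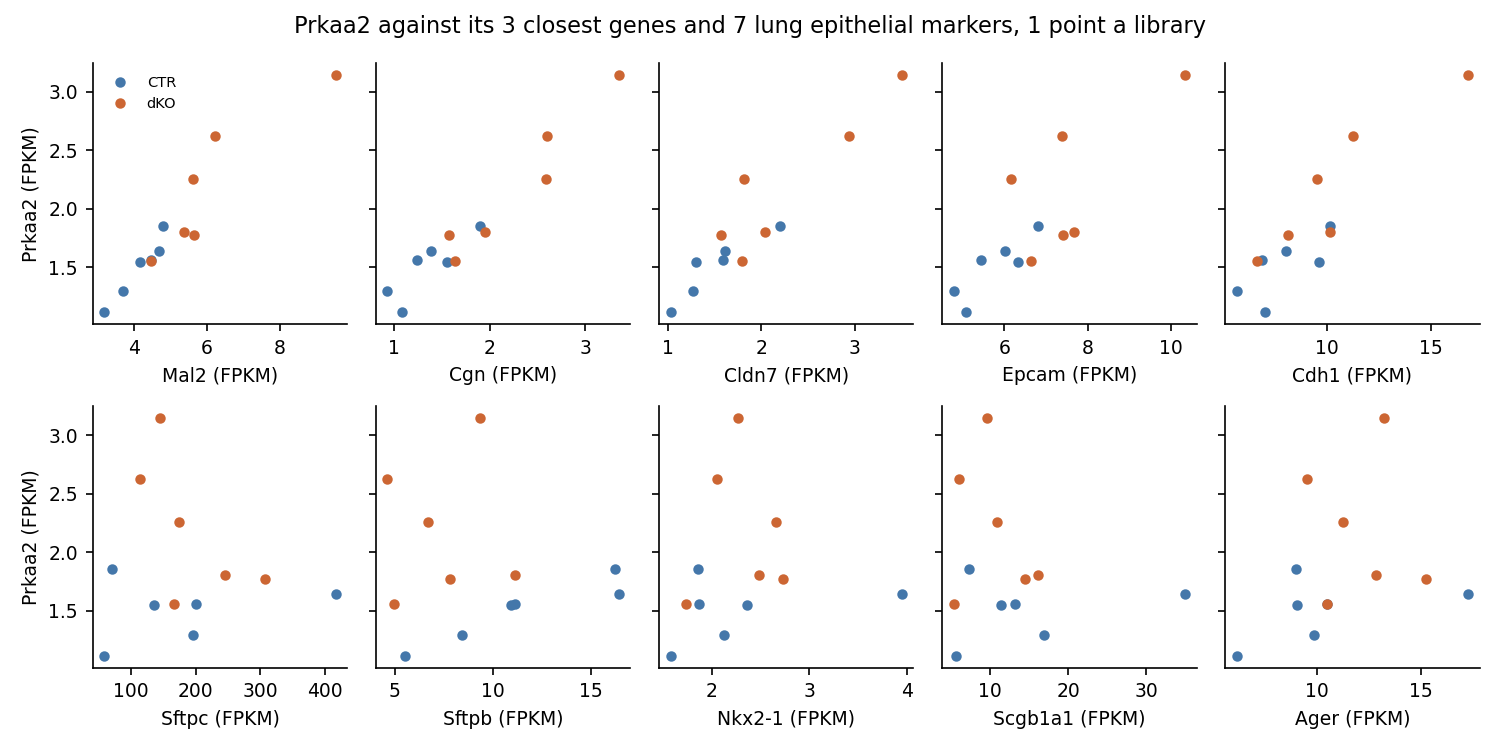
FPKM of Prkaa2 (vertical axis) against FPKM of its 3 closest genes and of the 7 lung epithelial markers (horizontal axes), 1 point a library, CTR in blue and dKO in orange. For Mal2, Cgn, Cldn7, Epcam and Cdh1 points of both groups rise together with dKO replicate 1 at the top, and for the other 5 markers r over 12 libraries is between −0.13 and 0.38, although the CTR points of Sftpb also rise with Prkaa2 (r = 0.96).

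The dKO library of replicate 1 had 3.15 FPKM of Prkaa2, 9.52 of Mal2, 16.8 of Cdh1 and 10.3 of Epcam. The CTR library of replicate 1, the lowest in Prkaa2 and Mal2, had 1.12 FPKM of Prkaa2, 3.19 of Mal2, 7.01 of Cdh1 and 5.09 of Epcam. Epcam was called higher in dKO (log2 fold change 0.34, limma, adjusted p = 0.0186) and Cdh1 was not (0.33, adjusted p = 0.147). The other lung epithelial markers did not pass the test and lay on both sides of 0, with Sftpc at 0.33 (limma, adjusted p = 0.53), Ager at 0.26 (adjusted p = 0.249), Nkx2-1 at 0.04 (adjusted p = 0.83), Scgb1a1 at −0.35 (adjusted p = 0.45) and Sftpb at −0.54 (adjusted p = 0.0888). What part epithelial transcripts have in the Prkaa2 values was not tested.

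For Prkaa1 the most similar patterns were those of Zfp1008, a zinc finger gene, with r = 0.91, Nrep with r = 0.90 and Hoxa3, a homeobox transcription factor gene, with r = 0.88 over 12 libraries. All were highest in CTR replicate 1, at 2.04, 131.5 and 3.31 FPKM, as was Prkaa1 at 22.8 FPKM. Within CTR r was 0.98, 0.97 and 0.88, and within dKO 0.79, 0.73 and 0.87.

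Alpha transcripts as a whole, the sum of Prkaa1 and Prkaa2 in FPKM, were 21.4 ± 1.41 in CTR and 20.5 ± 1.93 in dKO libraries (SD, n = 6). The ranges overlapped, with 4 of 6 dKO libraries below all CTR libraries and medians of 20.99 in CTR and 19.49 in dKO. Prkaa2 made up 4.67% to 9.19% of that sum in CTR libraries (median 7.32%) and 8.21% to 13.6% in dKO libraries (median 10.5%). The share was above the CTR maximum in 4 of 6 dKO libraries, and Prkaa1 was the main alpha transcript in all 12.

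The beta subunits hold the complex together and carry a glycogen-binding module. Prkab1 (ENSMUSG00000029513, chr5:116151645-116162567, minus strand) was between 10.2 and 12.5 FPKM in CTR libraries (median 11.4) and between 9.20 and 11.8 FPKM in dKO libraries (median 9.90). The dKO library of replicate 1, at 11.8 FPKM, and that of replicate 6, at 10.4 FPKM, lay among the CTR libraries, and the other 4 lay below all of them. The log2 fold change was −0.14 (SE 0.07, 95% interval −0.29 to −0.002), which did not pass the test (limma, adjusted p = 0.0803; exact two-sided permutation test, p = 0.0455). Prkab1 passed the test without dKO replicate 1 (−0.18, limma, adjusted p = 0.0208) or without CTR replicate 1 (−0.17, adjusted p = 0.046), and was nearer 0 under median-of-ratios (−0.06, adjusted p = 0.448) and quantile scaling (−0.09, adjusted p = 0.245).

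Prkab2 (ENSMUSG00000038205, chr3:97565509-97581146, plus strand) had the change furthest from 0 on the log2(FPKM + 1) scale. It was between 4.41 and 5.96 FPKM in CTR libraries (median 5.22) and between 3.27 and 4.21 FPKM in dKO libraries (median 3.51). The highest dKO library, replicate 1, was below the lowest CTR library, which was also replicate 1. Prkab2 fell with a log2 fold change of −0.43 (SE 0.08, limma, adjusted p = 0.000436), and its mean in dKO was 0.693 times that in CTR; the exact two-sided permutation test gave p = 0.00216, the smallest this test can give. Its share of the beta sum was 29.8% to 34.2% in CTR (median 30.9%) and 24.2% to 28.5% in dKO libraries (median 25.8%), again without overlap. The sum itself was 16.6 ± 1.13 FPKM in CTR and 13.8 ± 1.14 FPKM in dKO (SD, n = 6), with 5 of 6 dKO libraries below all CTR libraries.

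The gamma subunits bind AMP, ADP and ATP. Prkag1 (ENSMUSG00000067713, chr15:98710177-98729434, minus strand) was between 4.13 and 5.96 FPKM in CTR libraries (median 5.28) and between 3.75 and 5.84 FPKM in dKO libraries (median 4.30). The groups overlapped widely, with dKO replicate 6 at the top and CTR replicate 6 at the bottom of their groups. The log2 fold change of −0.18 (SE 0.10, 95% interval −0.40 to 0.04) did not pass the test (limma, adjusted p = 0.146), but without dKO replicate 6 it passed (−0.25, limma, adjusted p = 0.0414). Under median-of-ratios and quantile scaling it was −0.11 and −0.10 (limma, adjusted p = 0.415 and 0.456). This gene had the fewest fragments of the 10, 99 to 170 a library, and 38.8% of its annotated exon bases are shared with the antisense gene B130046B21Rik, listed at 0.07 FPKM in CTR and 0.026 FPKM in dKO. That share is of all 3897 annotated exon bases, while the FPKM of Prkag1 rest on 1638 bases. The share of those bases was not worked out. The authors' use of strand is not given in the sources used here.

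Prkag2 (ENSMUSG00000028944, chr5:25067728-25306439, minus strand) was between 2.19 and 2.78 FPKM in CTR libraries (median 2.59) and between 2.94 and 4.06 FPKM in dKO libraries (median 3.54). Every dKO library lay above every CTR library. Prkag2 rose with a log2 fold change of 0.34 (SE 0.07, limma, adjusted p = 0.00227; exact two-sided permutation test, p = 0.00216, n = 6 in each group), and its mean in dKO was 1.37 times that in CTR. It made up 29.5% to 40.1% of the gamma sum in CTR (median 32.2%) and 39.5% to 51.0% in dKO libraries (median 42.6%), with 5 of 6 dKO libraries above the CTR maximum set by replicate 6. The size of this share rests on the lengths behind the FPKM, 6480 bases for Prkag2 and 1638 for Prkag1. Their canonical transcripts have 3272 and 1653 bases, and on those lengths the share of Prkag2 would be larger in both groups. The gamma sum was 7.80 ± 0.685 FPKM in CTR and 8.02 ± 1.04 FPKM in dKO (SD, n = 6), with overlapping ranges. Antisense genes that share exon bases with Prkag2 were listed at no more than 0.279 FPKM on average.

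**Figure D3:**
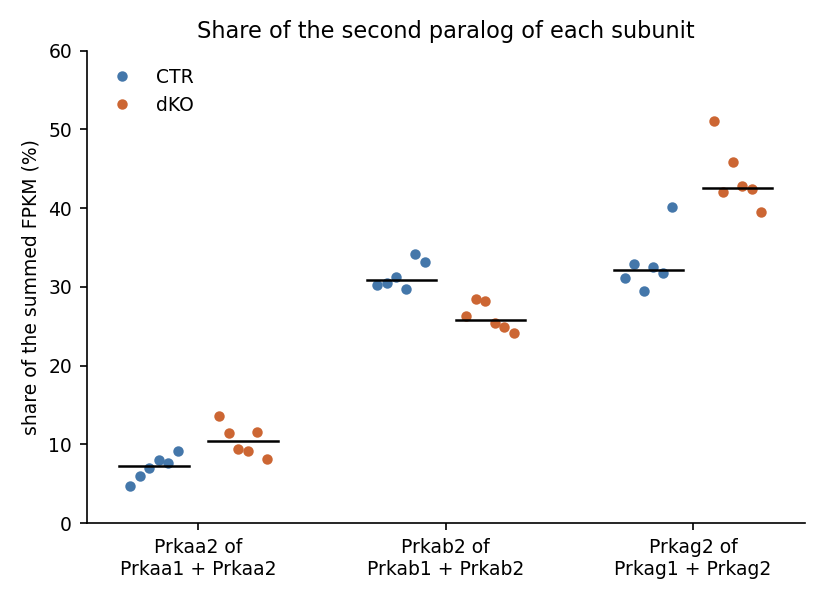
Share (%) of the second paralog in the summed FPKM of each pair of AMPK subunit genes, 1 point a library, CTR in blue and dKO in orange, with medians as black lines. The Prkab2 share lies lower in every dKO library, and the Prkaa2 and Prkag2 shares lie higher in most dKO libraries, with overlap. The size of each share rests on the gene lengths behind the FPKM, which for Prkag2 and Prkab1 exceed the canonical transcript.

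Among the upstream genes, Stk11 rose, Map3k7 fell, and Cab39 and Camkk2 did not pass the test. Stk11 (ENSMUSG00000003068, chr10:79951597-79966520, plus strand), which encodes the tumour suppressor kinase LKB1, was between 16.5 and 19.3 FPKM in CTR libraries (median 17.3) and between 18.6 and 23.7 FPKM in dKO libraries (median 21.0). Of the dKO libraries 5 lay above all CTR libraries, and replicate 5, at 18.6 FPKM, lay below CTR replicate 4 at 19.3 FPKM. The log2 fold change was 0.26 (SE 0.07, limma, adjusted p = 0.00607; exact two-sided permutation test, p = 0.00433), and the mean in dKO was 1.21 times that in CTR. Of its exon bases 4.8% are shared with the antisense gene Cbarp, at 1.77 FPKM in CTR and 2.72 FPKM in dKO libraries.

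Cab39 (ENSMUSG00000036707, chr1:85721104-85779304, plus strand), whose product MO25alpha stabilises LKB1 with the pseudokinase STRAD, was the most abundant of the 10. It was between 20.7 and 21.9 FPKM in CTR libraries (median 21.7) and between 21.1 and 25.1 FPKM in dKO libraries (median 22.9). Here 5 dKO libraries lay above all CTR libraries, while replicate 5 lay among them. The log2 fold change of 0.10 (SE 0.05, 95% interval −0.02 to 0.22) did not pass the test (limma, adjusted p = 0.134; exact two-sided permutation test, p = 0.026). Its transcript shares stretches of up to 344 bases, at 95% identity or more, with other transcripts. Under median-of-ratios scaling the log2 fold change was 0.19 and passed (limma, adjusted p = 0.0123), and on TPM it was 0.06 (adjusted p = 0.455).

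Camkk2 (ENSMUSG00000029471, chr5:122869233-122917739, minus strand) encodes a calcium-calmodulin dependent kinase that activates AMPK when calcium rises. It was between 4.19 and 6.20 FPKM in CTR libraries (median 4.84) and between 2.90 and 5.32 FPKM in dKO libraries (median 4.34). The groups overlapped, with dKO replicate 1 the lowest and CTR replicate 4 the highest, and the log2 fold change of −0.19 (SE 0.12, 95% interval −0.45 to 0.07) did not pass the test (limma, adjusted p = 0.193). Without dKO replicate 1 it was −0.11 (limma, adjusted p = 0.389), as it was under median-of-ratios (adjusted p = 0.476) and quantile scaling (adjusted p = 0.485), and with array weights it was −0.12 (adjusted p = 0.238). Further from 0, it was −0.26 on TPM (limma, adjusted p = 0.138) and −0.25 without dKO replicate 5 (adjusted p = 0.0975).

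Map3k7 (ENSMUSG00000028284, chr4:31963864-32051628, plus strand) encodes TAK1, a kinase of inflammatory and TGF-beta signalling that can also act upstream of AMPK. It was between 15.01 and 19.5 FPKM in CTR libraries (median 18.6) and between 13.8 and 15.7 FPKM in dKO libraries (median 15.1). CTR replicate 4, at 15.01 FPKM, was the single CTR library within the dKO range. Map3k7 fell with a log2 fold change of −0.26 (SE 0.07, limma, adjusted p = 0.00555; exact two-sided permutation test, p = 0.00866), or −0.31 without CTR replicate 4 (limma, adjusted p = 0.00041) and −0.17 under median-of-ratios scaling (adjusted p = 0.0472). A processed pseudogene, Gm8188, matches 1708 bases of its transcript at 95.1% identity and was listed at 0.088 FPKM in CTR and 0.13 FPKM in dKO libraries.

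**Figure D4:**
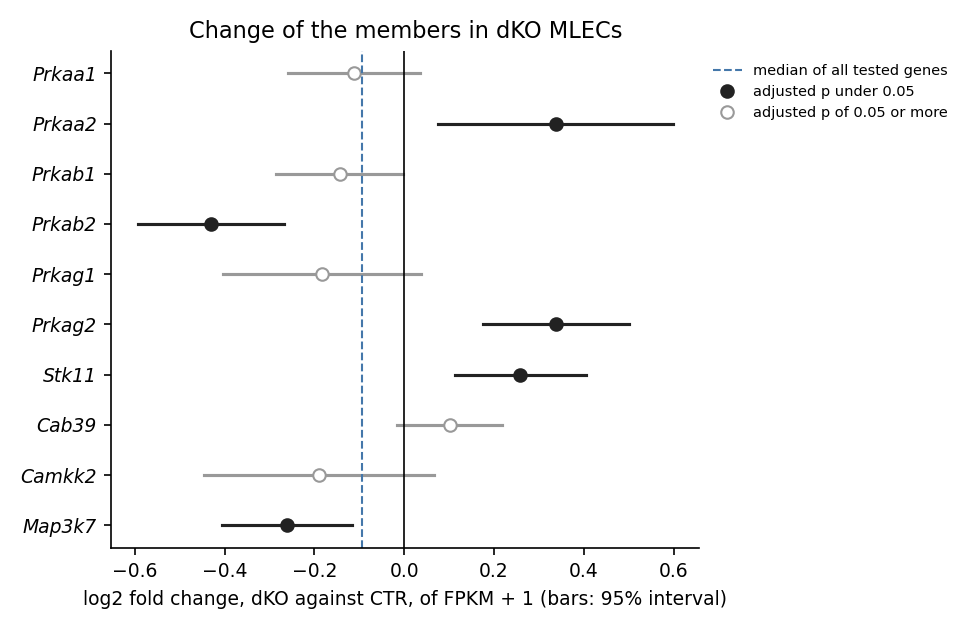
Log2 fold change of dKO against CTR on the log2(FPKM + 1) scale for the 10 genes, with 95% intervals from limma; filled points have an adjusted p under 0.05 and the dashed line is the median of all tested genes at −0.10. Prkab2 and Map3k7 lie to the left and Prkaa2, Prkag2 and Stk11 to the right of 0.

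FPKM are per kilobase, so levels set side by side between genes rest on the length used for each. The lengths recovered from the FPKM were near the canonical transcript for Prkaa1 (4655 against 4781 bases) and Prkag1 (1638 against 1653). They were far longer for Camkk2 (10921 against 5155), Prkag2 (6480 against 3272), Cab39 (7077 against 3870) and Stk11 (4580 against 2606). The groups and orders below hold for the deposited FPKM and could differ on canonical lengths. In CTR libraries Cab39, Prkaa1, Map3k7 and Stk11 formed a high group, with means of 21.6, 19.9, 18.2 and 17.5 FPKM, in which neighbours overlapped. Prkab1 at 11.3 FPKM stood apart from its neighbours on both sides. Prkag1, Prkab2 and Camkk2, at 5.24, 5.22 and 4.94 FPKM, overlapped, and Prkag2 at 2.56 and Prkaa2 at 1.51 FPKM each lay below all values of the gene above. In dKO libraries Stk11, at 21.1 FPKM, stood second and overlapped Cab39 at 23.2 and Prkaa1 at 18.3, while Map3k7, at 15 FPKM, no longer overlapped Prkaa1. Below Prkab1 at 10.2 FPKM, each of Prkag1, Camkk2, Prkab2, Prkag2 and Prkaa2, at 4.51, 4.24, 3.62, 3.51 and 2.19 FPKM, overlapped the next in line. In every library of both groups the more abundant subunit of the alpha pair was Prkaa1 and of the beta pair Prkab1. In FPKM, Prkag1 exceeded Prkag2 in all libraries but dKO replicate 1. That order of the gamma pair rests on the lengths used and need not hold on canonical lengths.

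Of the remaining genes of the AMPK and LKB1 complexes, 1 of 3 tested was higher and none lower, where 20.4% and 32.6% of all tested genes were; the count higher was 2 under median-of-ratios scaling and 0 with the filter at 5 FPKM, and no filter gave 1 lower. Stradb, a pseudokinase partner of LKB1, rose from 2.54 ± 0.24 FPKM in CTR to 3.26 ± 0.217 FPKM in dKO (SD, n = 6; log2 fold change 0.27, limma, adjusted p = 0.00397). Strada, its paralog, had a log2 fold change of −0.05 (adjusted p = 0.718) and Cab39l, which encodes MO25beta, of 0.09 (adjusted p = 0.267). Prkag3, the gamma3 gene known from skeletal muscle, was at no more than 0.0803 FPKM and was not tested.

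Of 18 other regulators of AMPK 16 were tested, and 3 were higher and 5 lower in dKO, so that 8 of 16 were called beside 53.1% of all tested genes (20.4% higher, 32.6% lower), with a median log2 fold change of −0.05 beside −0.10 for all genes. The count of 5 lower was 3 under median-of-ratios scaling and 6 without CTR replicate 1. It was 4 with no filter, quantile or upper-quartile scaling, or a block on replicate number. It was also 4 without CTR replicate 2, 3, 4 or 5 or dKO replicate 2, 4 or 5. Of these 5 genes, Sesn2 and Tab2 passed in all alternatives, and Tab1 was nearest the threshold. Sesn2, which encodes the stress-induced protein sestrin 2, was between 26.1 and 41.7 FPKM in CTR and between 15.4 and 19.9 FPKM in dKO libraries, without overlap, and fell with a log2 fold change of −0.88 (SE 0.11, limma, adjusted p = 3.23e-05). Tab2, an adaptor of TAK1, was between 21.9 and 30.5 FPKM in CTR and between 17.7 and 20.7 FPKM in dKO libraries, also without overlap, and fell with a log2 fold change of −0.50 (limma, adjusted p = 0.000193). Of the other TAK1 partners, Tab1 fell (−0.20, limma, adjusted p = 0.0339) and Tab3 did not pass the test (−0.09, adjusted p = 0.406). Fnip2, a folliculin partner that binds AMPK, was between 9.29 and 16.3 FPKM in CTR and between 16.8 and 28.5 FPKM in dKO libraries and rose with a log2 fold change of 0.69 (limma, adjusted p = 0.00149). Adipor1, an adiponectin receptor gene, rose as well (0.40, adjusted p = 0.00021), and the phosphatase genes Ppp2ca (−0.35, adjusted p = 0.00129) and Ppm1a (−0.22, adjusted p = 0.00752) fell. Camkk1, the paralog of Camkk2, averaged 0.793 FPKM in CTR and 1.11 FPKM in dKO and was not tested, as was Ppm1e.

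LKB1 also phosphorylates a family of kinases related to AMPK. Of 12 such genes 11 were tested, and 4 were higher and 3 lower, beside 20.4% and 32.6% of all tested genes, with a median log2 fold change of −0.03. The count of 3 lower was 1 without CTR replicate 3, 5 or 6 or dKO replicate 2, 3 or 4, and also 1 with median-of-ratios or quantile scaling or the filter at 5 FPKM. Nuak1 was between 4.45 and 9.73 FPKM in CTR and between 12.8 and 20.1 FPKM in dKO libraries, without overlap, and its log2 fold change of 1.10 (SE 0.17, limma, adjusted p = 0.00016) corresponded to FPKM means 2.27 times as high in dKO. Sik1 (0.52, limma, adjusted p = 0.00119) and Nuak2 (0.49, adjusted p = 0.0193) rose too, and Snrk was called higher close to the threshold (0.38, adjusted p = 0.0488). The count of 4 higher was 3 with no filter, on TPM and with upper-quartile scaling. It was also 3 without CTR replicate 1, 2, 3 or 6 or dKO replicate 2, 3, 4, 5 or 6. Nuak1, Nuak2 and Sik1 passed in all of these, so the call lost was that of Snrk. Sik2 (−0.39, adjusted p = 0.00749), Brsk1 (−0.32, adjusted p = 0.0337) and Mark3 (−0.17, adjusted p = 0.039) fell. The SIK paralogs Sik1 and Sik2 thus differed in sign and the NUAK paralogs did not. Brsk2 was near 0 and was not tested.

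Of 22 genes for proteins that AMPK phosphorylates 21 were tested, and 3 were higher and 6 lower, so that 9 of 21 were called beside 53.1% of all tested genes (20.4% higher, 32.6% lower), with a median log2 fold change of −0.02. The count of 3 higher was 1 without CTR replicate 6 or with the filter at 5 FPKM, and 2 with no filter, on TPM or without CTR replicate 1, 2, 3 or 5 or dKO replicate 2, 3, 4, 5 or 6. Among the 6 that fell, Acaca and Acacb, the acetyl-CoA carboxylases of fatty acid metabolism, had log2 fold changes of −0.42 (limma, adjusted p = 0.00454) and −0.39 (adjusted p = 0.00734), Gys1, muscle-type glycogen synthase, −0.36 (adjusted p = 0.0106), and Mff, a mitochondrial fission factor, −0.33 (adjusted p = 0.000749). Txnip, which restrains glucose uptake, had −0.48 (adjusted p = 0.00947), and Tbc1d1, a Rab GTPase activator in glucose transporter traffic, −0.34 (adjusted p = 0.00325). Its paralog Tbc1d4 rose (0.55, adjusted p = 0.0123), as did the glycolytic regulator Pfkfb3 (0.38, adjusted p = 0.0278) and Nos3, which encodes eNOS (0.34, adjusted p = 0.0377). Tbc1d4 passed in all 23 alternatives in which it was tested, and the calls lost in those named above, other than with the filter at 5 FPKM, were of Pfkfb3 or Nos3, both of them without CTR replicate 6. Nos3 averaged 1.62 FPKM in CTR and 2.31 FPKM in dKO, in libraries in which the endothelial marker Cdh5 averaged 88.9 and 140.3 FPKM. The autophagy genes Ulk1 (0.06), Becn1 (−0.05) and Atg9a (−0.02) and the mTORC1 regulators Tsc2 (0.01) and Rptor (−0.02) did not pass the test (limma, adjusted p between 0.456 and 0.882). Ppargc1a was below the filter. These are transcript levels and say nothing of phosphorylation.

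**Figure D5:**
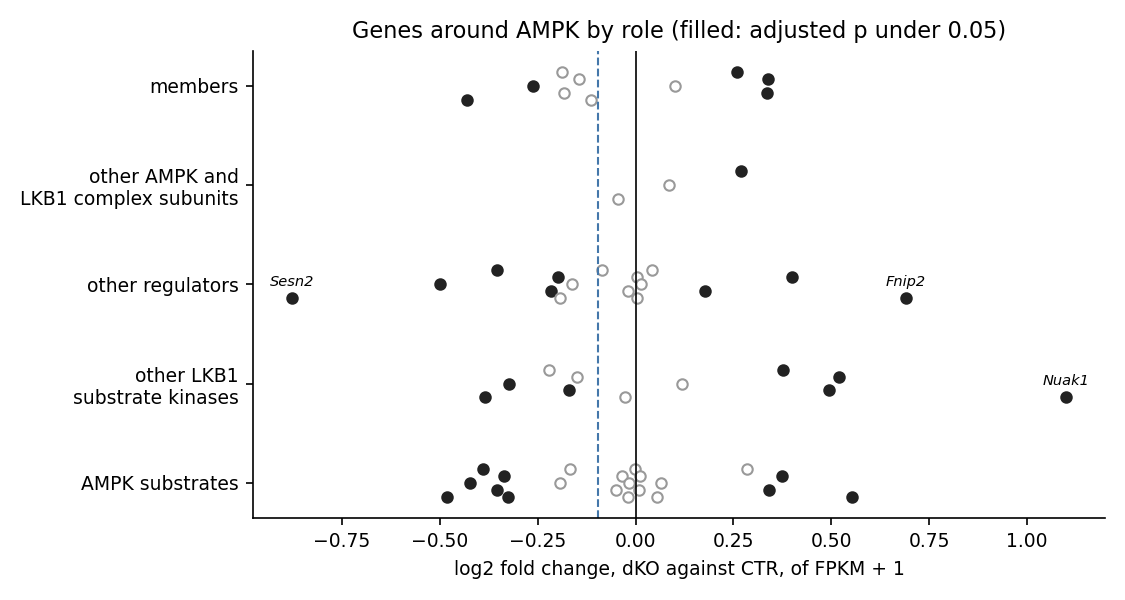
Log2 fold change of dKO against CTR on the log2(FPKM + 1) scale for the 10 genes and for the tested genes of 4 lists around AMPK, 1 point a gene, filled where the adjusted p from limma is under 0.05; the dashed line is the median of all tested genes. In every list points lie on both sides of 0, from Sesn2 at −0.88 to Nuak1 at 1.10.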

How the data were processed

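The authors isolated RNA from MLECs and deposited FPKM values for 28689 genes in 12 libraries. The study's methods describe trimming with Trimmomatic, alignment to mm39 with STAR, extraction of uniquely aligned reads with sambamba and a repeated alignment. The submitters' processing notes instead name the aligners Bowtie2 2.2.3, HISAT2 2.1.0 and TopHat2, and the extract protocol of the labels names retina and a TruSeq kit where the study's methods name MLECs and an NEB kit. The counting program, annotation and use of strand are not given in the sources used here. Columns were matched to groups by name. Those named TAM were taken as dKO because the others are named CTR; both groups had tamoxifen, and Sp1 was lower in every TAM column. Identifiers were matched to GENCODE on GRCm39 for 27706 genes, and 983 were not matched.

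FPKM are not counts, so log2(FPKM + 1) was tested here with limma 3.58.1 in R 4.3.3 (lmFit, eBayes with a trend, no covariates, Benjamini-Hochberg over the 12467 genes that reached 1 FPKM in 6 libraries or more; called means an adjusted p under 0.05). Fold changes on this scale understate changes of low genes. Whole gene lengths between 20 and 150000 bases that turn the FPKM into whole fragments, within 0.01, were found for all genes and gave the depth, 15523054 to 17938286 fragments a library. Exact permutation tests enumerated every division of the 12 libraries into 6 and 6. Copies were sought with BLAST 2.17.0 at 95% identity over at least 150 bases. The steps were tested on simulated data, with the spread between libraries set by hand. Planted log2 changes of −0.3 and 0.3 were called in 26 of 48 and 28 of 50 genes, and changes of −1 and 1 in all. Of 12396 genes without a planted change 6 were called. Real changes of 0.3 or less can thus be missed. Tables were handled in pandas 2.3.3 under Python 3.11.15, the length search ran in numba 0.67.0 and NumPy 2.4.6, and Matplotlib 3.10.9 drew the plots.

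The 10 genes and all lists were chosen with earlier results of these data known. All 10, Sp1 and Sp3 are named, with the 3 called genes of largest change in each pathway list, the 3 genes most like Prkaa1 and Prkaa2, and the most abundant marker of a cell type list; other list genes are named with their values, and the lung epithelial markers were set beside Prkaa2 after values had been seen. Alternatives were the pseudocounts 0.1 and 0.01, no filter, at least 5 FPKM, TPM, 3 other scalings (upper-quartile, median-of-ratios, quantile), array weights, robust eBayes, a block on replicate number, limma-voom on recovered fragments, and leaving out each library.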

Additional observations from a re-analysis of the deposited data

Results flagged for a closer look

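Of 44 groups of 6 libraries looked at for a library that stands apart, 4 were picked out, where chance gives about 1 in 20, or 2.2. They were the CTR and dKO groups of the 10 AMPK genes, the targeted genes and the called pathway genes of largest change, at most 3 a list. Map3k7 was at 15.01 FPKM in CTR replicate 4, with the other CTR libraries between 18.3 and 19.5 FPKM. Tab2, an adaptor of the kinase that Map3k7 encodes, was at 21.9 FPKM in the same library, with the others between 27.9 and 30.5 FPKM. Nuak1 was at 20.1 FPKM in dKO replicate 1, with the other dKO libraries between 12.8 and 15.3 FPKM. Nuak2 was at 6.69 FPKM in that same library, with the others between 2.99 and 4.28 FPKM. Both libraries were at the edge of their group for further genes that were not picked out. CTR replicate 4 was the lowest CTR library for Sesn2 (26.1 FPKM) and the highest for Txnip (86.3 FPKM) and Sik1 (19.3 FPKM). The dKO library of replicate 1, with the fewest fragments (15523054), was the highest dKO library for Prkaa2 (3.15 FPKM) and the lowest for Sp1 (8.42 FPKM). Other genes had their extremes in other libraries. The cause of these values was not tested.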

How the results depend on the processing

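Over all alternatives in which they were tested, Prkab2, Prkag2, Stk11 and Map3k7 kept their direction and an adjusted p under 0.05 (limma). The log2 fold change of Prkab2 ran from −0.54 to −0.34, of Prkag2 from 0.30 to 0.45, of Stk11 from 0.22 to 0.35 and of Map3k7 from −0.32 to −0.17. Prkaa1 stayed below 0 without passing (adjusted p 0.0765 to 0.782). Prkaa2 lost its call in 8 of 23 alternatives, among them no filter (adjusted p = 0.0708) and TPM (0.0552), and stayed above 0 in all 23. Prkab1 passed under TPM (adjusted p = 0.0269) and array weights (0.00645). The filter at 5 FPKM left out Prkaa2, Prkab2, Prkag2 and Camkk2, so 1 of the 10 genes was called higher and 1 lower; it also gave 0 other complex subunits higher, 1 LKB1 substrate kinase lower, 1 AMPK substrate higher, and 4222 genes called, 2514 of them lower, from fewer genes tested. No filter added 1 complex subunit called lower. Median-of-ratios scaling gave 2 complex subunits higher, 3 regulators lower and 1 LKB1 substrate kinase lower, with 51.7% of called genes higher in place of 38.5%, and quantile normalization also gave 1 LKB1 substrate kinase lower; the cause was not tested. Leaving out 1 library gave 1 to 3 LKB1 substrate kinases lower (1 without CTR replicate 3, 5 or 6, or dKO replicate 2, 3 or 4) and 1 to 3 AMPK substrates higher (1 without CTR replicate 6). Same-numbered CTR and dKO libraries deviated together at r of −0.11 to 0.57 over genes, so the numbers were not taken to pair them; with the replicate number as a block, 6955 genes were called, 2 of the 10 genes higher and 2 lower, and Prkaa2 missed the threshold (0.34, adjusted p = 0.0781). Depth limits Prkag1 and Prkaa2 most, at 99 and 155 fragments in their thinnest libraries.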
